A study of Rattus norvegicus with 12 samples.

Results

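Glycolysis splits glucose into pyruvate in the cytosol, and the genes described here are those of its transporters and enzymes together with genes that respond to low oxygen. The list of 35 genes was set by gene symbol, and each symbol matched a record of the deposited table. Where a symbol had several records (Eno1, Pgam1, Slc2a1, Slc2a3 and Vegfa), the record with the highest mean level was used. The table holds 22442 gene records in all. Of these, 11611 had a mean of at least 1 FPKM (sequenced fragments divided by transcript length and by the size of the library, so that levels can be set beside each other between genes) over the 12 libraries and were tested, and 34 of the 35 genes were among them. Egln3 was the exception, with a mean of 0.559 FPKM and a range of 0.28 to 0.78.

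The cells were fibroblast-like synoviocytes (FLS), the fibroblasts that line the joint, from male Sprague Dawley rats in which adjuvant arthritis had been induced with complete Freund's adjuvant. They were used at the third passage. Control cells (FCA) were kept in DMEM medium only. Taurochenodeoxycholic acid (TCDCA), a taurine-conjugated bile acid, was given for 12 h at 10 µM (AT10), 1 µM (AT1) or 0.1 µM (AT01). Each group had 3 libraries of poly(A) RNA. All groups, FCA included, therefore came from arthritic animals, and no healthy control entered the comparison. The study describes the numbers 1 to 3 as repeats of the experiment and does not state whether they came from separate rats or cultures, so the p-values measure only the spread between these libraries, which may be technical. In a bulk culture, fewer cells of a type and less RNA per cell cannot be told apart. The question addressed was which transcripts TCDCA alters in these cells.

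In glycolysis, transporters bring glucose in, hexokinase and phosphofructokinase commit it, and the later enzymes yield ATP and pyruvate, which lactate dehydrogenase can turn into lactate. When oxygen is low, the prolyl hydroxylases Egln1 and Egln3 mark less HIF-1α for destruction through Vhl, and HIF then raises transcription of many of the genes listed here. Synovium in arthritis is known as a tissue of low oxygen, and activated FLS are known for high use of glucose.

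The cultures carried the markers of their label. Of 13 fibroblast and synovial lining markers, 11 were found, and their summed level was 5780 to 7250 FPKM in each library. Vim (mean 2658 FPKM), Dcn (1273), Col3a1 (853), Col1a1 (846) and Lum (716) held most of it. Thy1 had a mean of 138 FPKM and Prg4 of 32.5. Summed levels of endothelial markers were 0.07 to 0.21 FPKM and of skeletal muscle markers 0.23 to 0.77. Macrophage markers summed to 5.71 to 21.9 FPKM, chondrocyte markers to 3.11 to 8.16 and adipocyte markers to 2.44 to 5.56. Cd14 (mean 13.8 FPKM) held most of the macrophage sum, and Csf1r had a mean of 0.157. Some of these sums are incomplete, since records were found for 4 of 5 endothelial, 3 of 4 skeletal muscle and 4 of 6 macrophage markers. Pecam1, Ptprc and Cd163 were among those without a record, as were Col1a2 and Pdgfra of the fibroblast list. All records summed to between 284210 and 309696 FPKM per library, and the 35 genes made up 1.33% to 1.58% of that sum. The read counts behind the values were not used here, so the precision of a single value is unknown.

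HIF binds DNA at a core of 5 bases, ACGTG or GCGTG. The 250 bases before the start site, from RefSeq (build GRCr8), were searched for both on both strands, with overlapping matches (as in the palindrome CACGTG) counted as 1 stretch. Windows were at hand for 31 of the 35 genes, and not for Ero1a, Ndrg1, Pgk1 and Slc2a3. A match stood in 19 of these 31 genes (61.3%), against 39.6% of the 27457 genes with a window. The palindrome CACGTG stood in 19.4% of the 31 genes and in 6.18% of all. A match is a description of the letters and not a site shown to be bound. The list was chosen to include genes that respond to low oxygen, and the 27457 genes were not limited to expressed ones. The shares therefore do not rest on like sets, and their difference was not tested. No match stood in the windows of Adm, Car9, Egln3, Epas1, Gpi, Hk2, Pfkfb4, Pkm, Slc16a3, Tpi1, Vegfa and Vhl. Of the 3 Aldoa windows, 1 held a match. The windows of 4 genes are shown. Bnip3 was the only gene of the list called below, and Aldoc, never called, had the smallest p over all TCDCA libraries. Ldha and Slc2a1 were the most abundant lactate dehydrogenase and glucose transporter genes of the list. These 4 windows hold 3 or 4 stretches each, the highest numbers in the list, and are not typical of it. Capitals mark the matches. The windows are chr1:203154963-203155212 (minus strand) for Bnip3, chr10:63715294-63715543 (plus strand) for Aldoc, chr1:106507842-106508091 (plus strand) for Ldha and chr5:138002272-138002521 (plus strand) for Slc2a1.
Bnip3: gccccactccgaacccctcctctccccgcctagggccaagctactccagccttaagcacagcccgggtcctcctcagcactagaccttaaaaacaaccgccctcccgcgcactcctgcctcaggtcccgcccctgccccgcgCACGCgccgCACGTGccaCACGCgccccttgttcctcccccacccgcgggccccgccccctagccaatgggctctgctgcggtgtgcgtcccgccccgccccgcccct
Aldoc: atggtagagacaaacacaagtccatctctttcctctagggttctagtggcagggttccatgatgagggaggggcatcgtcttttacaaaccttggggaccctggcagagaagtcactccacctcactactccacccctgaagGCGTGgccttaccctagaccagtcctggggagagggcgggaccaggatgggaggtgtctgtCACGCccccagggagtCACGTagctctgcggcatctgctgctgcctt
Ldha: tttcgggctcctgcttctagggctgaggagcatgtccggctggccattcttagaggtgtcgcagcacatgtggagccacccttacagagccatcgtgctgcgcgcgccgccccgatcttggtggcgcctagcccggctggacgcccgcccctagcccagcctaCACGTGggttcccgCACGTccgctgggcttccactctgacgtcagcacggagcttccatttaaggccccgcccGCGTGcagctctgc
Slc2a1: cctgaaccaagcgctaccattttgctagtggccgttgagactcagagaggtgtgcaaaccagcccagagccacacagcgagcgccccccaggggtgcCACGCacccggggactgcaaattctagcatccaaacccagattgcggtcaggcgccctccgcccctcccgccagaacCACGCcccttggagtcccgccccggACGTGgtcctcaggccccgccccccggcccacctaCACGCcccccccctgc
The Bnip3 window held 3 stretches, which began 108, 99 and 90 bases before the start site, the middle one being CACGTG. Ldha held 3 (87, 73 and 14 bases before the start), Aldoc 3 (108, 47 and 31) and Slc2a1 4 (153, 76, 51 and 16).

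The steady levels of the pathway spanned a wide range. Aldoa (mean 828 FPKM over the 12 libraries), Ldha (830), Eno1 (760) and Pkm (701) ranked 32, 31, 37 and 43 among all 22442 records, and their ranges over libraries overlapped. Pgk1 (379), Tpi1 (215), Gpi (157) and Pgam1 (120) followed. The hexokinases Hk1 (49.6) and Hk2 (29.9) and the phosphofructokinases Pfkl (36.0), Pfkp (19.5) and Pfkm (12.1), which act at the committed steps, lay lower. In several families a single gene held most of the level. Aldoc made up 0.260% to 0.400% of the 2 aldolase genes together and Ldhb 0.742% to 1.14% of the lactate dehydrogenase pair. Slc2a1 made up 85.3% to 92.1% of the 2 glucose transporter genes, while Hk2 held 34.3% to 43.9% of the hexokinase pair. Among oxygen-sensing genes, Hif1a (60.2 FPKM), the regulated subunit of HIF-1, lay above its paralog Epas1 (4.35), which held 4.27% to 9.75% of the pair. Vhl had a mean of 12.05 FPKM and Egln1 of 10.4.

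**Figure D1:**
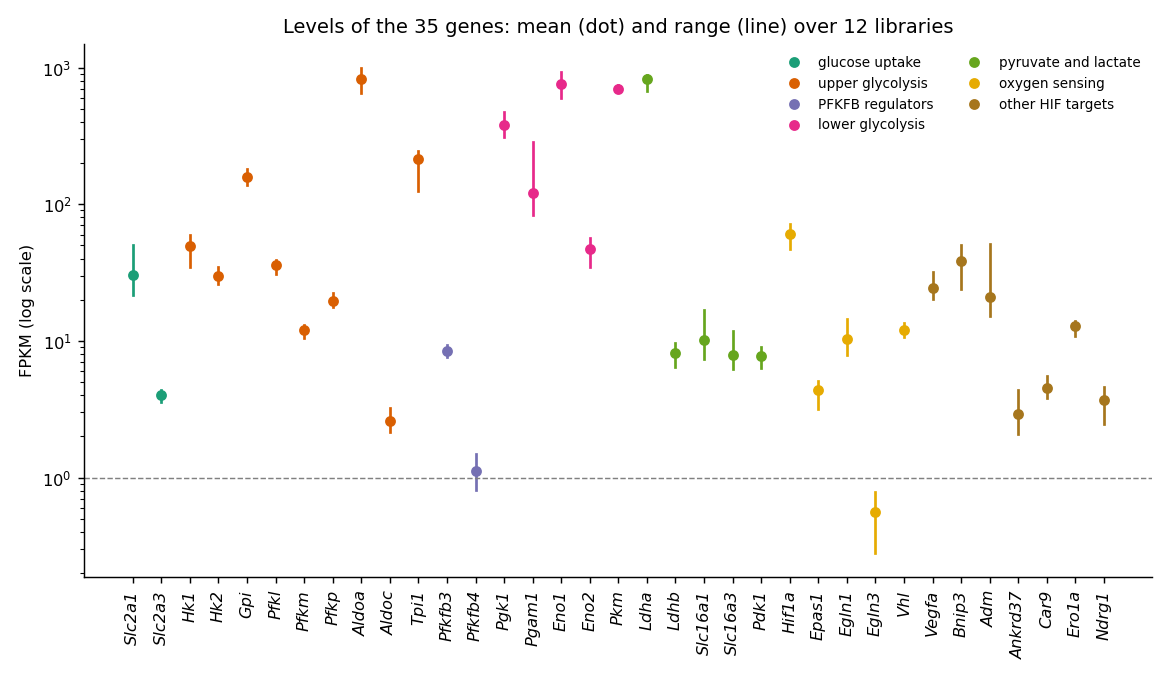
Level of each of the 35 genes in FPKM on a log axis, ordered by role. Dots are means over the 12 libraries, lines span the lowest to the highest library, and the dashed line marks 1 FPKM. Aldoa, Eno1, Pkm and Ldha lie between 701 and 830 FPKM, and Egln3 alone lies under 1.

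As a set, the genes lay close to the other records at each dose. On the log2(FPKM + 1) scale, which understates the change of low genes, the median log2 fold change of the 34 genes against FCA was 0.037 for AT10, 0.034 for AT1 and -0.0016 for AT01, beside -0.0085, 0.016 and 0.0017 over all 11611 records. Of the 34, 19 were higher and 15 lower in AT10, 20 and 14 in AT1, and 17 and 17 in AT01. All 9 TCDCA libraries against the 3 of FCA gave a median of 0.013 (all records 0.0031). The median deviation of the 34 genes in single libraries from their own means ran from -0.081 (AT01 replicate 3) to 0.068 (AT01 replicate 1). The lowest and the highest library thus belonged to the same group. AT01 replicate 3 also had the lowest summed level of all 35 genes, 3789 FPKM, against 4314 to 4733 in the other 11. The summed levels were 4608 ± 167 FPKM in FCA, 4460 ± 80.7 in AT10, 4455 ± 123 in AT1 and 4320 ± 471 in AT01 (mean ± SD, n = 3), and these ranges overlapped.

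**Figure D2:**
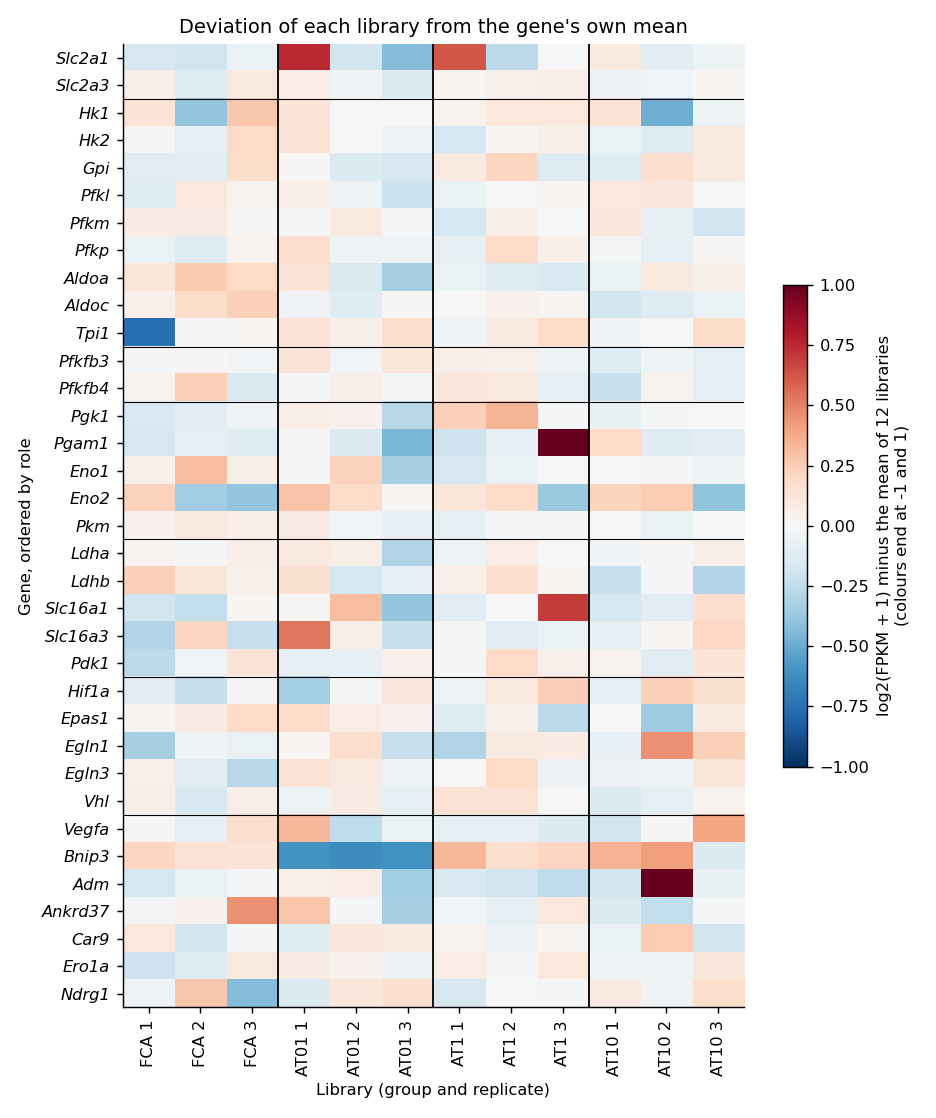
Deviation of each library (columns, by group and replicate) from a gene's own mean over the 12 libraries, as log2(FPKM + 1), for the 35 genes (rows, by role). Blue is lower and red higher, and colours end at -1 and 1. Bnip3 is blue in all 3 AT01 libraries, while Pgam1 (AT1 replicate 3) and Adm (AT10 replicate 2) are each red in a single library.

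Gene by gene, limma with Benjamini-Hochberg adjustment over all 11611 records called 1 of the 34 genes, Bnip3, at an adjusted p under 0.05. It was called lower in AT01 than in FCA, where 0.0947% of all records passed, and lower in AT01 than in AT1, where 0.129% did. In AT10 against FCA limma called 0 of the 34 (0.172% of all records), and 2 had an unadjusted p under 0.05 (11.9%). In AT1 against FCA it called 0 (0.0947%), and 2 had an unadjusted p under 0.05 (11%). In AT01 against FCA, 1 had an unadjusted p under 0.05 (6.60%). Read against these shares, the genes passed the unadjusted threshold no more often than records at large (5.88%, 5.88% and 2.94% of the 34). A re-coded F test of the kind Ballgown, the tool of the study, applies called 0 in each of these 3 comparisons (0.00861%, 0% and 0.00861% of all records), with 4, 3 and 1 genes at an unadjusted p under 0.05 (10.4%, 6.83% and 5.71%).

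For all TCDCA libraries against FCA, limma called 0 of the 34 (0.0258% of all records), and 3 had an unadjusted p under 0.05 (12%). The Ballgown-style test also called 0 there (0.00861%), with 4 at an unadjusted p under 0.05 (8.51%). Between doses, AT10 against AT1 gave 0 calls (0.258%) and 1 gene at an unadjusted p under 0.05 (6.46%). AT10 against AT01 gave 0 calls (0.0689%) and 1 at an unadjusted p (4.97%). AT1 against AT01 gave 1 at an unadjusted p (3.43%), which was Bnip3. The Ballgown-style test called 0 between any doses (0.0172%, 0.00861% and 0.0172%), with 3, 1 and 1 genes at an unadjusted p under 0.05 (8.79%, 5.22% and 5.93%). A single test for any difference among the 4 groups called 0 (0.0431%), with 3 at an unadjusted p under 0.05 (8.57%), namely Bnip3, Aldoc and Aldoa, and the Ballgown-style test called 0 (0.0172%), also with 3 (8.43%). The study itself selected genes by an unadjusted p under 0.05 together with a change of more than 1 in either direction on the log2 scale. By that criterion none of the 34 qualified in any comparison. Among all records 0.706% (AT10), 0.620% (AT1) and 0.758% (AT01) met it against FCA, and 0.491% did for all TCDCA. Between the doses the shares were 0.594% for the higher pair (AT10 and AT1), 0.568% for the lower pair (AT1 and AT01) and 0.672% for the outer pair.

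A few genes did not overlap with FCA. Every AT10 library lay below every FCA library for 6 of the 34 genes (17.6%; 9.18% of all records) and above for 0 (10.7%). The 6 were Aldoa, Aldoc, Pfkfb3, Eno1, Pkm and Ldhb. In AT1, 4 genes lay below (10.0% of all records), namely Aldoa, Aldoc, Eno1 and Pkm, and 1 above (9.87%), Pgk1. In AT01, 2 lay below (8.06%), Aldoc and Bnip3, and 1 above (5.97%), Tpi1. Across all 9 TCDCA libraries only Aldoc lay below all of FCA (2.94% of the 34 genes, 1.90% of all records). Above all of FCA lay 0 genes (0.956% of all records). The 3 doses share the FCA libraries, so these counts are not independent of one another.

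**Figure D3:**
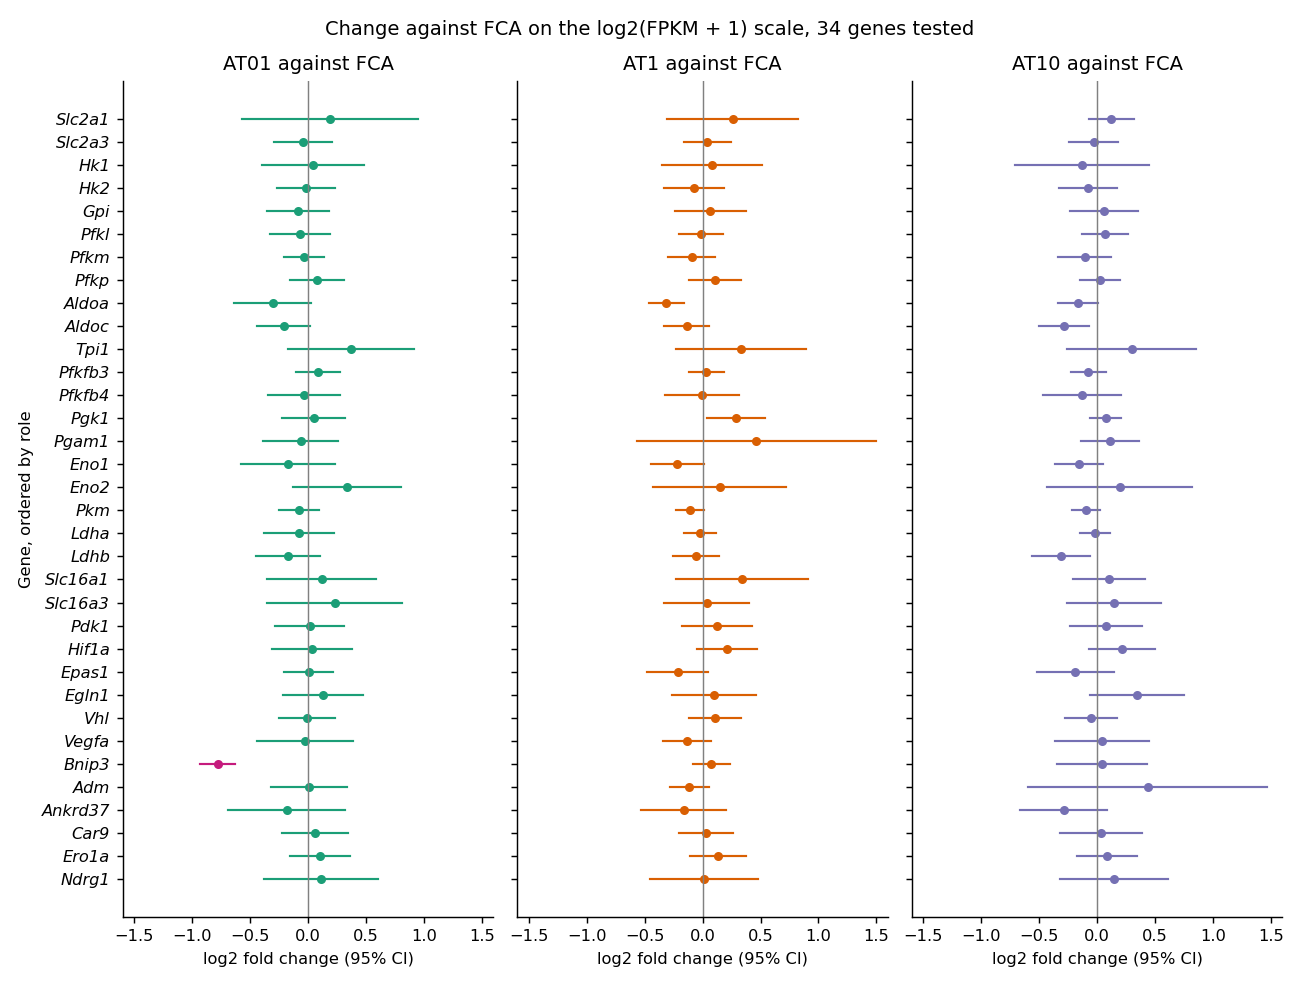
Log2 fold change against FCA with its 95% confidence interval from limma for the 34 genes tested, 3 libraries a group, at each dose. Only Bnip3 in AT01 (pink, -0.78) had an adjusted p under 0.05.

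Bnip3, a mitochondrial protein of the outer membrane that promotes the clearance of mitochondria and is a known HIF target, carried the difference that passed the test. Its level was 43.6, 41.4 and 41.2 FPKM in the FCA libraries, 24.4, 23.8 and 24.2 in AT01, 47.4, 42.2 and 43.5 in AT1 and 47.8, 50.2 and 33.8 in AT10. The 3 AT01 libraries lay below each of the other 9, and only AT10 replicate 3 stood between them and the rest. The log2 fold change of AT01 against FCA was -0.78 (SE 0.06, 95% CI -0.93 to -0.63), with a limma adjusted p of 0.0252. On the scale of FPKM + 1 this is 0.583 times the FCA value. The exact two-sided permutation test gave p = 0.1, the smallest that 3 against 3 allows. AT1 lay above AT01 by 0.85 (SE 0.07, limma adjusted p 0.0267) and AT10 by 0.82 (SE 0.16, limma adjusted p 0.586). Against FCA, AT10 differed by 0.042 (SE 0.16) and AT1 by 0.074 (SE 0.064), so the lower level appeared at the lowest dose and not at the higher ones. Over all TCDCA libraries the change was -0.22 (SE 0.25, limma adjusted p 0.736).

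The Bnip3 call had limits. It was lost when any 1 of the 6 libraries of the comparison was left out (limma adjusted p 0.054 to 0.0911, log2 fold change -0.79 to -0.75), in 1 fit over all 12 libraries (limma adjusted p 0.129) in the Ballgown-style test (adjusted p 0.323) and with the replicate number as a block (limma adjusted p 0.469), while the direction held in each of these. The difference between AT1 and AT01 was also lost under the block (limma adjusted p 0.434). The test among all 4 groups gave a limma adjusted p of 0.0984. Its paralog Bnip3l, which serves the same process, moved otherwise and was looked at after the Bnip3 values were seen. It was at 8.12 to 9.37 FPKM in 8 libraries, at 18.4 and 22.1 in AT01 replicates 1 and 2, and at 22.9 and 25.2 in AT10 replicates 1 and 3. Bnip3l levels thus split inside 2 of the groups.

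**Figure D4:**
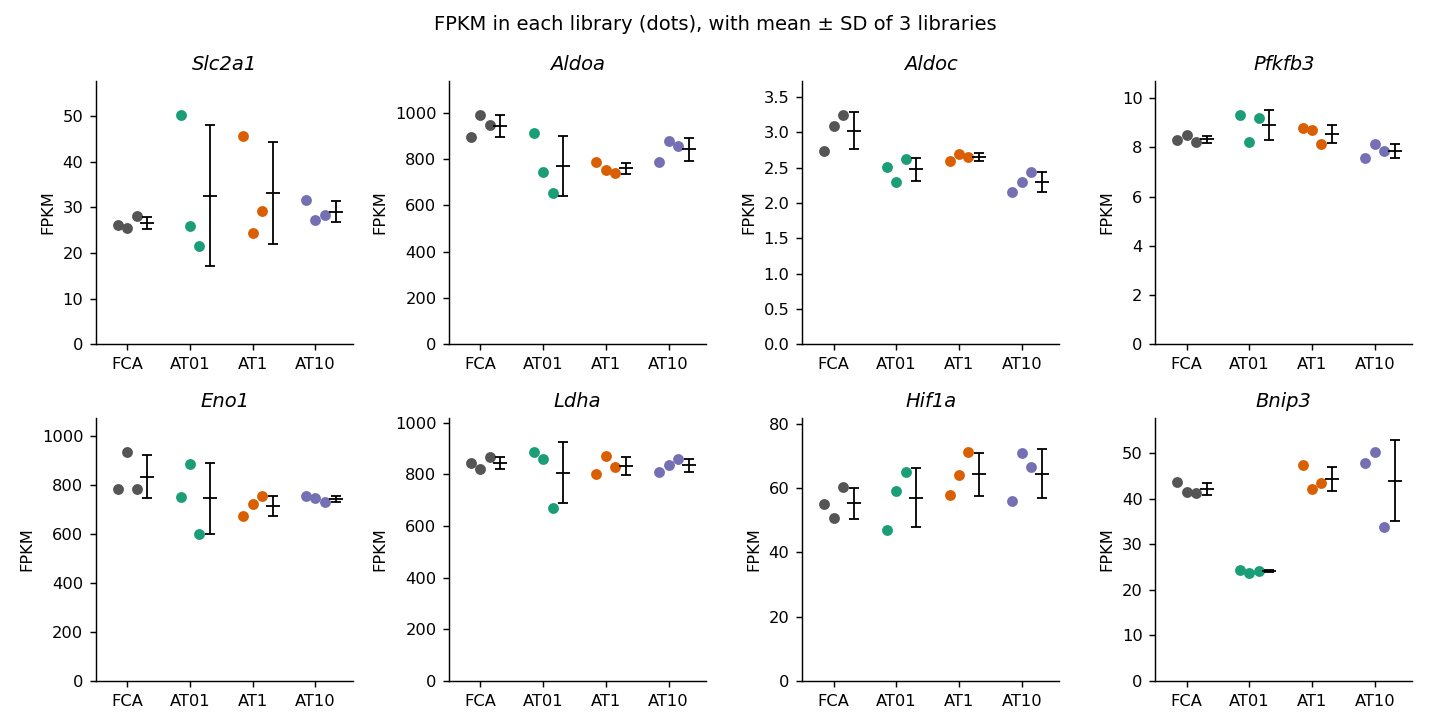
FPKM of 8 genes in each library (dots), with mean ± SD of the 3 libraries of a group (bars), axes starting at 0. Bnip3 in AT01 (23.8 to 24.4) lies below all other libraries (33.8 to 50.2), and the 9 Aldoc values under TCDCA (2.16 to 2.70) lie below the 3 of FCA (2.73 to 3.24).

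Of glucose uptake, Slc2a1, the basal glucose transporter, was at 26.2, 25.4 and 28.1 FPKM in FCA, 31.5, 27.2 and 28.4 in AT10, 45.7, 24.4 and 29.3 in AT1 and 50.1, 25.8 and 21.5 in AT01. A single library of AT1 and a single one of AT01 stood high, and every dose overlapped with FCA. The change over all TCDCA libraries was 0.19 (SE 0.22, limma adjusted p 0.744), and 0.10 without AT01 replicate 1. Slc2a3, a transporter of high affinity, ranged from 3.58 to 4.34 FPKM.

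In upper glycolysis, both aldolases, which split fructose bisphosphate into trioses, had lower values with TCDCA. Aldoa was at 895, 988 and 947 FPKM in FCA, 787, 879 and 858 in AT10, 786, 751 and 740 in AT1 and 911, 745 and 652 in AT01. AT10 and AT1 did not overlap with FCA, and AT01 did through 1 library. The log2 fold changes were -0.17 (SE 0.07) in AT10, -0.31 (SE 0.06) in AT1 and -0.31 (SE 0.13) in AT01, with limma adjusted p of 0.427, 0.315 and 0.72. Over all TCDCA libraries Aldoa differed by -0.26 (SE 0.09, limma adjusted p 0.339, exact permutation p = 0.0227, two-sided), and 8 of the 9 were below the lowest FCA library.

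Aldoc, the aldolase form of brain, had levels near the floor of the test. It was at 2.73, 3.09 and 3.24 FPKM in FCA, 2.16, 2.29 and 2.44 in AT10, 2.59, 2.70 and 2.65 in AT1 and 2.51, 2.30 and 2.62 in AT01. All 9 TCDCA libraries lay below the 3 of FCA. The log2 fold changes were -0.28 (SE 0.09) in AT10, -0.14 (SE 0.08) in AT1 and -0.21 (SE 0.09) in AT01, with limma adjusted p of 0.31, 0.52 and 0.72. Over all TCDCA libraries it was -0.21 (SE 0.07, limma adjusted p 0.311). The exact two-sided permutation p was 0.00455, the smallest that 9 against 3 allows, and Aldoc was picked for that comparison as the gene of the list with the smallest p.

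Tpi1, which interconverts the trioses, was singled out after its values were seen. It was at 125 FPKM in FCA replicate 1 and at 207 to 244 in the other 11 libraries. Its change over all TCDCA libraries, 0.33 (SE 0.14, limma adjusted p 0.374), was 0.080 without that library. Hk1, Hk2, Gpi, Pfkl, Pfkm and Pfkp had their highest library 1.26 to 1.70 times the lowest, and none of the 6 had an unadjusted p under 0.05 in any comparison. Pfkfb3, which makes the activator fructose 2,6-bisphosphate, was at 8.30, 8.49 and 8.20 FPKM in FCA, 7.57, 8.13 and 7.85 in AT10, 8.77, 8.72 and 8.14 in AT1 and 9.30, 8.23 and 9.20 in AT01. AT10 lay below FCA and the other doses overlapped with it. Over all TCDCA libraries the change was 0.014 (SE 0.062, limma adjusted p 0.941). Pfkfb4 ranged from 0.81 to 1.48 FPKM.

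In lower glycolysis, Eno1, the main enolase, was at 782, 935 and 786 FPKM in FCA, 757, 745 and 733 in AT10, 671, 723 and 753 in AT1 and 751, 887 and 599 in AT01. Only AT01 overlapped with FCA, and the change over all TCDCA libraries was -0.18 (SE 0.10, limma adjusted p 0.474), and -0.099 without FCA replicate 2. Pgk1, the first step to yield ATP, was singled out for its direction, opposite to the aldolases. Its level was 339, 351 and 365 FPKM in FCA and 444, 476 and 373 in AT1, and these did not overlap. The log2 fold change was 0.29 (SE 0.10, limma adjusted p 0.431). In the other doses Pgk1 ranged from 312 to 395 FPKM and overlapped with FCA. Pkm, pyruvate kinase, had the narrowest range of the list relative to its level, 659 to 748 FPKM.

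In Pgam1, phosphoglycerate mutase, and Eno2, the neuronal enolase, some libraries stood apart. Pgam1 was at 284 FPKM in AT1 replicate 3 and at 82.8 to 131 in the other 11. Its change in AT1 against FCA was 0.46 (SE 0.41, limma adjusted p 0.657), and -0.026 without that library. Eno2 was at 34.6 to 36.0 FPKM in FCA replicates 2 and 3, AT10 replicate 3 and AT1 replicate 3, and at 47.0 to 56.4 in the other 8 libraries, so both levels occurred within 3 of the groups.

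Around pyruvate and lactate, Ldha, which turns pyruvate into lactate, was at 846, 821 and 866 FPKM in FCA, 810, 836 and 861 in AT10, 801, 872 and 828 in AT1 and 887, 861 and 672 in AT01. All doses overlapped with FCA, and only AT01 replicate 3 stood low. The change over all TCDCA libraries was -0.037 (SE 0.073, 95% CI -0.20 to 0.12, limma adjusted p 0.857). Ldhb, the form of oxidative tissues, was singled out because AT10 did not overlap with FCA. It was at 9.72, 8.87 and 8.39 FPKM in FCA and 6.77, 7.98 and 6.43 in AT10, a log2 fold change of -0.31 (SE 0.10, limma adjusted p 0.338). The lactate transporters Slc16a1 (7.40 to 16.8 FPKM) and Slc16a3 (6.19 to 11.8) had no unadjusted p under 0.05 in any comparison. The same held for the kinase Pdk1 (6.32 to 9.02), which keeps pyruvate out of the mitochondrion.

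**Figure D5:**
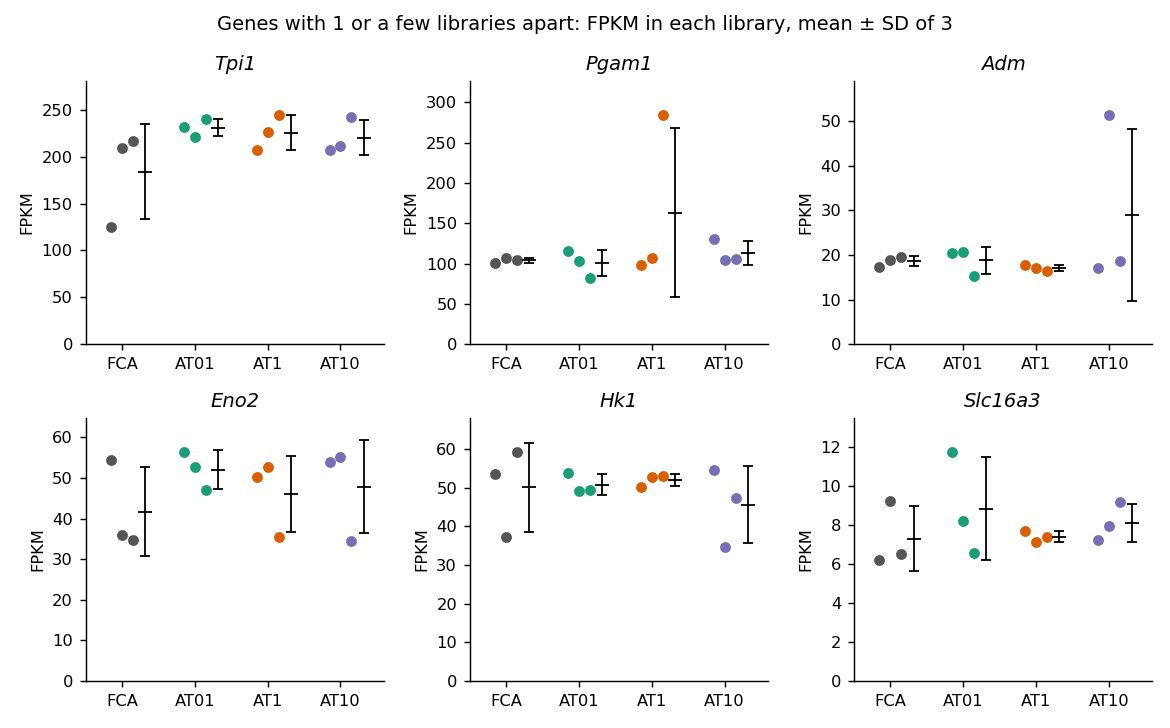
FPKM in each library (dots) with mean ± SD of 3 libraries (bars) for 6 genes with 1 or more libraries apart, axes starting at 0. Tpi1 is low in FCA replicate 1 (125), Pgam1 high in AT1 replicate 3 (284) and Adm high in AT10 replicate 2 (51.3), while Eno2 takes 2 levels within groups.

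Among oxygen-sensing genes, Hif1a was at 55.0, 50.5 and 60.2 FPKM in FCA, 55.9, 70.8 and 66.6 in AT10, 57.7, 63.9 and 71.1 in AT1 and 46.9, 59.0 and 64.8 in AT01. All doses overlapped with FCA, and the change over all TCDCA libraries was 0.15 (SE 0.11, 95% CI -0.09 to 0.40, limma adjusted p 0.608), and 0.092 without FCA replicate 2. Epas1 (3.16 to 5.07 FPKM), Egln1 (7.92 to 14.5) and Vhl (10.7 to 13.4), the factor that marks hydroxylated HIF-1α for destruction, also had no unadjusted p under 0.05 in any comparison. HIF-1α is controlled mainly as a protein, which these data do not measure.

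The HIF targets apart from Bnip3 did not follow it. Vegfa, the vascular growth factor, ranged from 20.2 to 32.03 FPKM, Car9, a carbonic anhydrase of the cell surface, from 3.82 to 5.52, Ero1a, an oxidase of the endoplasmic reticulum, from 10.9 to 13.9, Ankrd37 from 2.09 to 4.34 and Ndrg1 from 2.45 to 4.61. Adm, the vasodilator adrenomedullin, was at 51.3 FPKM in AT10 replicate 2 and at 15.3 to 20.8 in the other 11 libraries. Its change in AT10 against FCA was 0.44 (SE 0.42, limma adjusted p 0.679), and -0.052 without that library. None of these 6 had an unadjusted p under 0.05 in any comparison, and in AT01 against FCA 4 were higher and 2 lower.

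Several of the genes have partner records of like description in the table, between which reads could be split. These records were found by their descriptions after the data were seen, and no sequences were compared. The Ldha-like record RGD1562690 was listed at 0 in FCA replicate 1, AT10 replicate 2 and AT1 replicate 3 and at 57.1 to 80.6 FPKM in the other 9 libraries. The Tpi1-like record LOC100911515 was at 106 to 122 FPKM in all 12, without the low value of Tpi1 in FCA replicate 1. The Eno2-like record LOC100911625 was low in FCA replicates 2 and 3 (34.1 and 33.1 FPKM), as Eno2 was, but not in AT10 replicate 3 (49.8) or AT1 replicate 3 (46.6). The copies of Ldha, Tpi1, Eno1, Eno2, Pkm and Slc2a3 were then added to their partners. Over all TCDCA libraries, Tpi1 differed by 0.21 (SE 0.09, limma adjusted p 0.381) and Ldha by -0.016 (SE 0.076, limma adjusted p 0.942). Eno2 differed by 0.28 (SE 0.13) and Pkm by -0.092 (SE 0.041), both with a limma adjusted p of 0.41. For Eno2 and Pkm the unadjusted limma p were 0.0477 and 0.0476. Eno1 differed by -0.16 (SE 0.092, limma adjusted p 0.501) and Slc2a3 by -0.010 (SE 0.067, limma adjusted p 0.961).

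Of 31 other glycolysis genes listed, 21 were tested, and limma called 0 at an adjusted p under 0.05 at each of the 3 doses against FCA. At an unadjusted p under 0.05, 2 were lower in AT10, 1 was lower in AT1, and 2 were higher and 1 lower in AT01. Of all records, 11.9%, 11% and 6.60% passed in either direction, so only in AT01 was the share of the 21 larger. The Ballgown-style test called 0, with 3, 2 and 2 at an unadjusted p under 0.05 (10.4%, 6.83% and 5.71% of all records). Gapdh stood in this list through the record of that name, at 346 to 444 FPKM. The study reports a further record annotated as GAPDH, expressed in FCA and AT1 and without signal in AT10 and AT01. By q-PCR the study found GAPDH higher at these doses. That further record carries another name and was not in the list. Minpp1, a phosphatase that can bypass the mutase step, met the criterion of the study in AT01, with a log2 fold change of 1.41 (SE 0.53, limma adjusted p 0.72). It was at 8.91, 8.69 and 35.2 FPKM in FCA, 34.7, 44.1 and 39.4 in AT01, 43.2, 10.3 and 8.71 in AT10 and 9.51, 36.2 and 43.4 in AT1. A lower level (8.69 to 10.3) and a higher one (34.7 to 44.1) thus both occurred in FCA, AT10 and AT1. With 1 library left out the change ran from 1.09 (without FCA replicate 2, limma adjusted p 0.964) to 2.04 (without FCA replicate 3, limma adjusted p 0.0303). Of 37 other hypoxia genes listed, 31 were tested, and limma called 0 in the same comparisons. At an unadjusted p under 0.05, 2 were higher and 1 lower in AT10, and 5 higher and 2 lower in AT1. In AT01 there were 0 either way. Beside the same 11.9%, 11% and 6.60% of all records, only in AT1 was the share of the 31 larger. The Ballgown-style test called 0, with 3, 3 and 0 at an unadjusted p under 0.05 (10.4%, 6.83% and 5.71%). Among them Mxi1, a repressor related to Myc antagonists, met the criterion in AT10 against AT1 (-1.11, SE 0.22, limma adjusted p 0.395). It was at 2.38, 4.97 and 3.12 FPKM in AT10 and 8.18, 7.97 and 9.21 in AT1, but also at 7.99, 9.12 and 2.61 in FCA.

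Of 12 genes of pyruvate entry into mitochondria listed, 10 were tested. Limma called 1 of them in AT10 against FCA (0.172% of all records) and 0 at the other doses (0.0947% each). At an unadjusted p under 0.05 there were 1, 0 and 0 in AT10, AT1 and AT01 (11.9%, 11% and 6.60%). The Ballgown-style test called 0, with 1, 1 and 0 at an unadjusted p under 0.05 (10.4%, 6.83% and 5.71%). The gene called was Pdp1, the phosphatase that switches pyruvate dehydrogenase on, and it was lower in AT10 than in FCA. Its level was 7.02, 7.29 and 6.41 FPKM in FCA, 1.78, 1.01 and 0.71 in AT10, 1.04, 7.07 and 1.64 in AT1 and 0.22, 7.06 and 0.57 in AT01. All AT10 libraries lay below FCA, while 1 library each of AT1 and AT01 was at the FCA level. The log2 fold change was -1.90 in AT10 (SE 0.19, limma adjusted p 0.0469) and -1.58 over all TCDCA libraries (SE 0.54, limma adjusted p 0.339). The call in AT10 was lost without any 1 of the 6 libraries other than AT10 replicate 1 (limma adjusted p 0.0699 to 0.16), in 1 fit over all 12 libraries (0.423), with a pseudocount of 0.1 (0.0852), without a filter (0.108), without a trend (0.0539), with the replicate block (0.319) and in the Ballgown-style test (0.256). Its log2 fold change was -2.55 with the pseudocount of 0.1, -1.80 in the Ballgown-style test, -1.94 to -1.74 in the fits that lost the call with a library left out and -1.90 in the others. The median of the 10 was -0.060 in AT10, beside -0.0085 over all records.

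Other lists stood beside the lower aldolase values. Of 10 cell cycle genes, 5 were higher at an unadjusted p under 0.05 over all TCDCA libraries, beside 12% of all records in either direction, with a median of 0.16. Limma called 0 of them, and the Ballgown-style test called 0, with 3 at an unadjusted p under 0.05 (8.51% of all records). Of the 11 fibroblast and synovial lining markers, 3 were higher and 1 lower at an unadjusted p under 0.05 over all TCDCA libraries, limma called 0 of them, and their median was -0.14. Of the adipocyte and chondrocyte markers with at least 1 FPKM, 1 of 2 in each list was lower at an unadjusted p under 0.05, and of the macrophage markers 0 of 2. Their part in the values above was not tested.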

How the data were processed

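Poly(A) RNA of 12 FLS libraries, 3 in each of 4 groups taken from the labels, was sequenced by the authors. They aligned reads with HISAT2 2.0.4, estimated expression with StringTie 1.2.4 and Ballgown 2.6.0, and deposited FPKM per gene record; cutadapt and edgeR are also named in the submitters' processing notes, and the genome build was not given in the sources used here. FPKM were used as deposited, as log2(FPKM + 1), for records averaging 1 FPKM or more. Groups were compared 2 at a time, and all 9 TCDCA libraries with FCA, by limma 3.58.1 in R 4.3.3 (trend of variance) with Benjamini-Hochberg adjustment over 11611 records. The procedure was tested on simulated data. Exact permutation tests were two-sided.

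The genes and lists were chosen with earlier results of these data known. Values of every library are given for genes that passed an adjusted p under 0.05, met the criterion of the study, lay at 2 separate levels, had the smallest p of a comparison with FCA, or had the highest mean of their role. These were Slc2a1, Aldoa, Aldoc, Pfkfb3, Eno1, Ldha, Hif1a and Bnip3. Pgk1, Tpi1, Pgam1, Eno2, Ldhb, Adm and Bnip3l were added after their values were seen. Alternatives were another pseudocount (0.1), other filters, median-of-ratios scaling, records summed by name, limma without a trend, a joint fit of 12 libraries, a re-coded Ballgown-style F test, a replicate block and leaving out each library. Adding copy records to their partners was chosen after seeing the data.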

Additional observations from a re-analysis of the deposited data

Results flagged for a closer look

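Among the 34 genes tested, 6 had a library among the 9 of TCDCA that stood apart from the other 8. The rule was a ratio of gap to range above 0.493 (Dixon's 95% critical value). In a single group of normal values, chance alone gives this in about 1 group in 20. The 9 libraries pool 3 doses, and the share over all records was not computed. The count of 6 therefore has no background and is not read as a trait of these genes. Pgam1 was at 284 FPKM in AT1 replicate 3 (others 82.8 to 131). Adm was at 51.3 FPKM in AT10 replicate 2 (others 15.3 to 20.8). Hk1 was at 34.8 FPKM in AT10 replicate 2 (others 47.4 to 54.5), but FCA replicate 2 was also low, at 37.3. Ldha was at 672 FPKM in AT01 replicate 3 (others 801 to 887). Pkm was at 742 FPKM in AT01 replicate 1 (others 659 to 701), inside the FCA range of 722 to 748. Slc16a3 was at 11.8 FPKM in AT01 replicate 1 (others 6.56 to 9.18). Of these 6 libraries, 2 were AT10 replicate 2 and 2 were AT01 replicate 1.

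Bnip3 differed between doses, with AT1 above AT01 by 0.85 on the log2 scale (limma adjusted p 0.0267 for the contrast itself). All 3 AT1 libraries lay above all 3 of AT01.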

How the results depend on the processing

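Each result was recomputed under up to 11 other settings and without each library in turn. The single call of Bnip3, in AT01 against FCA and in AT1 against AT01, fell to 0 in 1 fit over all 12 libraries, in the Ballgown-style F test and with a replicate block, and to 0 (lowest 0, highest 0) without any 1 library of the comparison. The number of calls ran from 0 to 1 with libraries left out in AT10 against AT01 and in the test among 4 groups, the 1 being Bnip3 without AT10 replicate 3 (log2 fold change 0.99 between AT10 and AT01). Other comparisons kept 0 calls under all settings run. Over all records tested, the replicate numbers showed no strong pairing. Same-numbered libraries of different groups correlated by -0.11 to 0.09, with 0 of 18 above 0.1, and differently numbered ones by -0.15 to 0.15. This cannot show whether equal numbers shared a culture or batch that touched part of the genes, and the study does not state it. The median of the genes in AT10 against FCA ran from -0.017 to 0.034 with libraries left out, the lowest without FCA replicate 2.

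Of the single-gene changes printed in the report, these turned sign, each with a library left out: Pfkfb3 over all TCDCA -0.0025 to 0.031, Bnip3 in AT10 against FCA -0.063 to 0.22, Pgam1 in AT1 -0.026 to 0.73 and Adm in AT10 -0.052 to 0.71. Without a library left out and apart from the Ballgown-style fit, the median of the genes turned sign in AT01 against FCA and in AT10 against AT01. It ran from -0.0076 to 0.0044 in the former and from -0.022 to 0.017 in the latter. In the Ballgown-style fit it was -0.038 in AT1 against FCA, -0.055 in AT1 against AT01 and -0.027 over all TCDCA. These 3 medians are opposite in sign to the main values. The cause was not tested. Pdp1 in AT10 against FCA kept its direction and lost its call under most settings, as given above. Of the 56 log2 fold changes of the 8 genes given in full (7 comparisons each), 18 changed sign under at least 1 setting, and none of these exceeded 0.19 in size. Read counts were not used, so the limit that depth sets for low genes such as Pfkfb4 and Aldoc is unknown.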
